A study of Homo sapiens with 15 samples.

Results

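The G1/S and DNA replication genes are a set of 37 genes taken by name from lists of origin licensing and S-phase genes, out of the 47634 Ensembl genes of the count tables. They were picked by name and role, with earlier results of these data known. Each of the 37 was found under 1 Ensembl gene, and all 37 were among the 11113 genes that passed the filter on low counts. The genes were followed in IGROV-CP20, a cultured human ovarian carcinoma line that tolerates cisplatin, by QuantSeq, a sequencing method that samples each polyadenylated transcript close to its 3′ end. The 15 libraries fall into 5 groups of 3 biological replicates. Untreated cells received no agent, and the cisplatin group received 50 µM cisplatin for 24 h. Cells of the other groups were first kept for 24 h in 10 µM of one drug, Tranilast in one group, Telmisartan in another and Amphotericin B in the last, before the same 50 µM cisplatin for 24 h. Cells given one of these drugs without cisplatin were not analysed here, and all libraries come from a single line, so the measurements speak of these cells only. Tranilast is an anti-allergic drug, Telmisartan blocks the angiotensin II receptor, and Amphotericin B is an antifungal that binds membrane sterols. Levels are given as CPM, the count of a gene scaled to a common library total, here after adjustment by the trimmed mean of M-values (TMM), and are compared between groups within a gene, never between genes.

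Cells prepare for DNA replication in G1, when the origin recognition complex, CDC6 and CDT1 place the MCM helicase on DNA, a step called licensing, and geminin (GMNN) later blocks CDT1 so that no origin is licensed again. At the start of S phase, CDC45 and the GINS proteins join the MCM ring to make the active helicase, with the help of MCM10. The clamp PCNA, placed on DNA by the RFC complex, then holds the replicative polymerases, ribonucleotide reductase and thymidylate synthase supply the nucleotides, and CAF-1 and ASF1 put histones on the new DNA. Much of this set is transcribed under E2F factors, which the retinoblastoma protein holds inactive until cyclin-dependent kinases phosphorylate it, and cyclin E with CDK2, activated by CDC25A, drives entry into S phase. Cisplatin binds covalently to DNA bases and its adducts block replication forks.

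Because E2F factors control many of these genes, the start regions of the set were searched for an E2F motif, spelled TTTCCCGC, TTTCGCGC, TTTGCCGC or TTTGGCGC on either strand. The RefSeq windows of build GRCh38.p14 span 250 bases before to 50 bases after a gene's annotated start, and 32 of the 37 genes had at least 1 window. The motif was in a window of 18 of these 32 genes (56.2%), against 3.99% of all 27305 genes with a window. The 18 genes were E2F1, E2F2, CDC25A, CDT1, CDC6, GMNN, MCM2, MCM3, MCM6, MCM7, GINS1, GINS2, GINS3, PCNA, RFC3, POLA1, POLE and TYMS. A CCAAT box (CCAAT) was in 20 of 32 genes (62.5%, against 39.7% of all genes), and the CHR element (TTTGAA) of many mitotic genes in 2 of 32 (6.25%, against 18.2%). All motifs were searched on both strands. A match says that these letters are in the window and nothing about binding. The windows of 4 genes follow with the motif in capitals, each written 5′ to 3′ on the gene's strand, which is the minus strand in each case. E2F1, E2F2 and CDC25A are shown because they control entry into S phase and rose with cisplatin, and MCM6 because it held 4 matches and did not pass that test.
E2F1, chr20:33686336-33686635: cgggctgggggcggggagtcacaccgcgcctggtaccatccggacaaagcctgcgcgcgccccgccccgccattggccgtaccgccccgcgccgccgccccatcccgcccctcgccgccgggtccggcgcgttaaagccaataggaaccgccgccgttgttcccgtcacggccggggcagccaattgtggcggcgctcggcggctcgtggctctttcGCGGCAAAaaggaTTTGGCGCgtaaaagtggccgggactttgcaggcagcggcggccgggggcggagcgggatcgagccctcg
E2F2, chr1:23531184-23531483: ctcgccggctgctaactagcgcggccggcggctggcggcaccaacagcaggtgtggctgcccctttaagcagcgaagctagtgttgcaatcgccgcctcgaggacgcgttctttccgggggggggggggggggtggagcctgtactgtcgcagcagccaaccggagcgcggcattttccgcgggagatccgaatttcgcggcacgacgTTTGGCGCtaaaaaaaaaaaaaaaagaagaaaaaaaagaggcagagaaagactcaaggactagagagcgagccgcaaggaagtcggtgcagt
CDC25A, chr3:48188368-48188667: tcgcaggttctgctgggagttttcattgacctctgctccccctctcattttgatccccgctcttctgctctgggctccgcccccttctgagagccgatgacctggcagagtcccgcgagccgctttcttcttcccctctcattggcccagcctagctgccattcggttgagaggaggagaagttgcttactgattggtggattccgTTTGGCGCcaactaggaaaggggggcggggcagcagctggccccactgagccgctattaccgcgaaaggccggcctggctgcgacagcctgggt
MCM6, chr2:135876394-135876693: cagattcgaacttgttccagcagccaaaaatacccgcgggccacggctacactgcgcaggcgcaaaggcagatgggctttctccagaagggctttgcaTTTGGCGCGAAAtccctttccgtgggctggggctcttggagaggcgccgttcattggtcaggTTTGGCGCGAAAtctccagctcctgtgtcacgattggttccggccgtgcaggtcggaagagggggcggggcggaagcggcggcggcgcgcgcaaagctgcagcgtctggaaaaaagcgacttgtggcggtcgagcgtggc
The E2F2 motif began 42 bases and the CDC25A motif 44 bases before the annotated start, and those of E2F1 began 33 and 20 bases before it. In MCM6 the 4 matches formed 2 pairs of overlapping words, which began 152 and 90 bases before the start.

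Library totals ranged from 1510620 to 3517041 counts and were lowest with Amphotericin B and cisplatin (1510620 to 1872639). Counting error was widest for the lowly counted members, which reached 4 counts for CCNE2, 8 for PRIM1 and 11 for POLD1 and CHAF1B in their lowest library. Cisplatin replicate 1 stood apart from cisplatin replicates 2 and 3, and Telmisartan replicate 3 from Telmisartan replicates 1 and 2. The chi-square of their counts over its degrees of freedom was 30.6 and 49.5 for the former and 42.3 and 49.6 for the latter, against 2.36 to 9.02 for every other pair within a group. The share of counts on the mitochondrial ribosomal RNA genes was 13.7% in cisplatin replicate 1 against 5.61% and 3.41% in its replicates, and 10.8% and 12.9% against 3.61% in Telmisartan replicates 1, 2 and 3. That share was 1.79% to 2.2% in untreated cells, 2.1% to 2.53% with Tranilast and cisplatin and 12.3% to 14.8% with Amphotericin B and cisplatin. The part of this share in the results was tested no further than by a fit that holds it as a covariate. The shares in untreated and Tranilast libraries did not overlap those of the other groups. Between these, that fit cannot tell the share and the treatment apart. The epithelial genes KRT18, KRT8 and EPCAM were counted in all 15 libraries, while PAX8, WT1, MUC16 and KRT7, which mark many ovarian carcinomas, had at most 4 counts in any. Epithelial genes did not move as one with cisplatin: EPCAM fell (log2 fold change -0.94, adjusted p = 0.00172), while CDH1 (1.89, adjusted p = 0.000824) and KRT18 (0.64, adjusted p = 0.0135) rose. Summed over 9 epithelial markers the level was 146.7 to 253.1 CPM. Of 4 fibroblast markers, COL1A1 rose with cisplatin (1.55, adjusted p = 0.00218), Tranilast (1.63) and Telmisartan (1.52) over untreated cells, and the summed level was 7.892 to 9.495 CPM in untreated and 15.31 to 40.56 in treated libraries. The endothelial genes VWF and CDH5 were at 0 in every library. PTPRC, a leukocyte gene, had 220 to 296 counts in untreated libraries and 5 to 98 in treated ones, with CD3E at 0 throughout. The part of these markers in the results was not tested.

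Cisplatin alone raised 32 of the 37 genes over untreated cells and lowered 0 at an adjusted p under 0.05 in edgeR's quasi-likelihood test, adjusted by Benjamini and Hochberg over all genes tested. Of all 11113 genes, 21.1% were higher and 23.6% were lower. The median log2 fold change of the 37 genes was 1.23, against -0.01 over all genes, and the largest were 3.60 for CCNE2, 2.42 for ASF1B, 2.33 for E2F1, 2.31 for E2F2 and 2.20 for CCNE1. None of the 37 fitted changes was below 0. At an unadjusted p under 0.05 the numbers were 0 lower and 33 higher, against 3042 and 2762 of all 11113 genes. DESeq2 called 0 lower and 33 higher, where 22.6% and 23.5% of all genes were called. The 5 genes that did not pass were MCM6 (log2 fold change 0.20), RFC3 (0.15), POLA1 (0.14), PRIM1 (0.47) and RRM1 (0.36). In bulk RNA a larger share of cells in one phase of the cycle and more of a transcript per cell cannot be told apart.

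With a drug given before cisplatin the set was also above untreated cells. Against untreated cells, 31 genes were higher and 0 lower with Tranilast and cisplatin (2.44% and 5.66% of all genes), 32 higher and 0 lower with Telmisartan and cisplatin (12.8% and 15.8%), and 27 higher and 0 lower with Amphotericin B and cisplatin (17.6% and 23.3%). In all 3 comparisons the edgeR test gave 0 lower also at an unadjusted p under 0.05, and DESeq2 gave 0 lower. Of all 11113 genes, 1410, 2433 and 3173 were lower at that unadjusted p, and DESeq2 called 6.97%, 15.9% and 19.9% lower. The medians of the 37 log2 fold changes were 1.21, 1.29 and 1.03, against -0.01, -0.03 and -0.19 over all genes. These comparisons share the 3 untreated libraries with each other and with that of cisplatin alone. For 30 of the 37 genes, all 12 libraries with cisplatin lay above all 3 untreated ones, against 6.08% of the genes tested. The counts against untreated cells moved with the scaling. Scaled by library size only, 20 genes were higher and 0 lower with cisplatin alone and 11 higher and 1 lower with Amphotericin B and cisplatin, while the medians of all genes moved to -0.36 and -0.75. Of all genes, 9.17% were higher and 30.2% lower in the former, and 7.98% and 43.2% in the latter. Without untreated replicate 1, the count with Tranilast and cisplatin was 19 higher, where the share of all genes higher also fell, to 1.04%. With the mitochondrial share as a covariate, 29 genes were higher with cisplatin alone (24.1% of all genes), where CDC45, POLD1, POLE and TYMS lost their calls. The numbers were 34, 33 and 28 with Tranilast, Telmisartan and Amphotericin B, where 8.98%, 16.8% and 7.87% of all genes were higher. In that fit the median with Amphotericin B moved from 1.03 to 1.73, and its calls for CDC45, GINS4, POLE, RRM1 and TYMS were lost, as was that of CDC45 with Telmisartan.

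**Figure D1:**
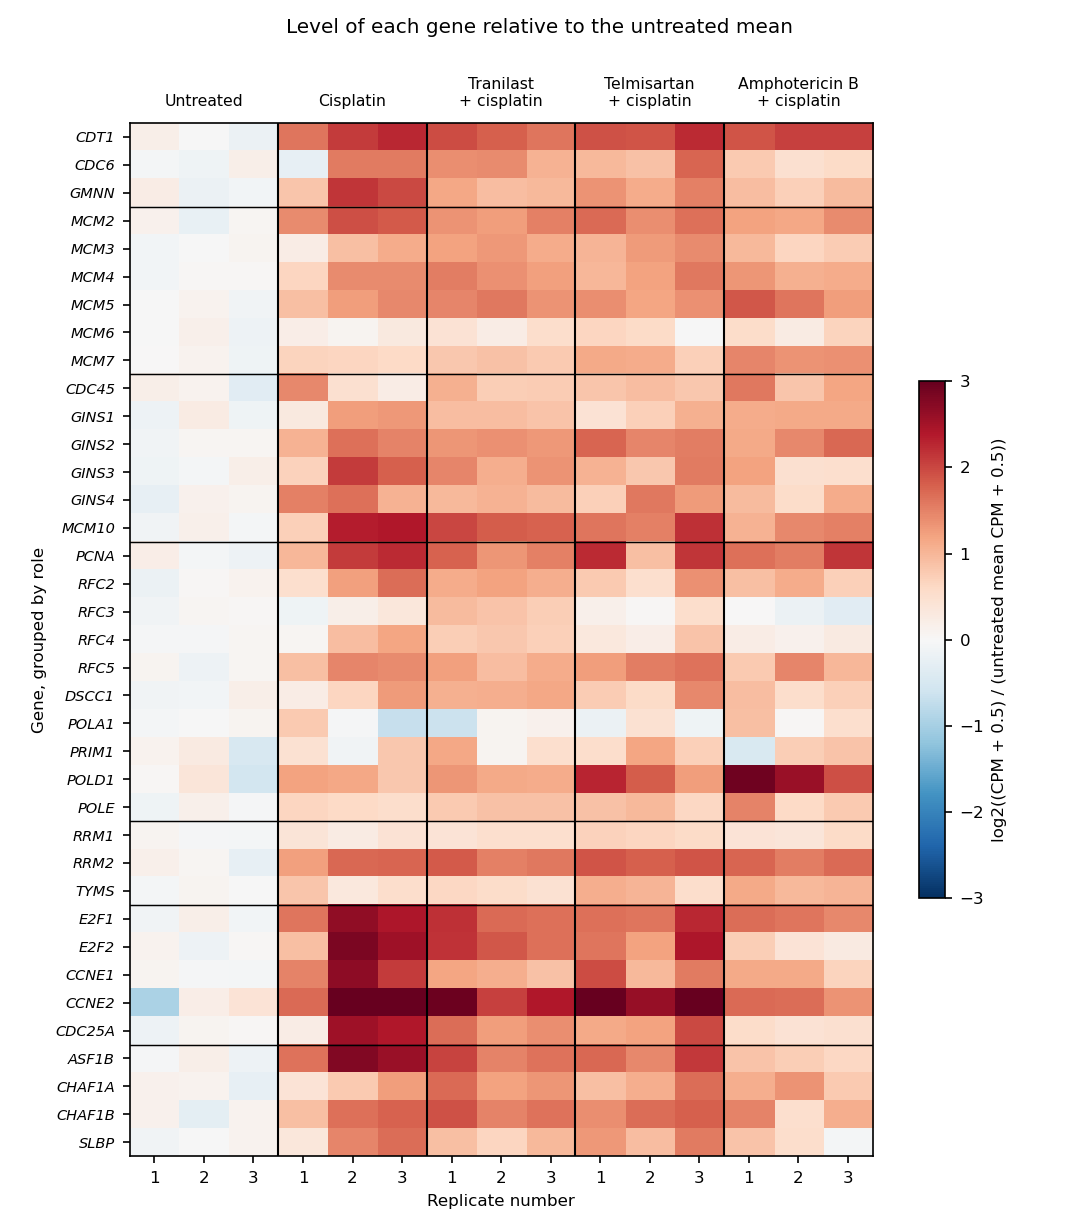
Each row is one of the 37 genes, grouped by role, and each column one of the 15 libraries. Colour gives log2 of the CPM plus 0.5 over the untreated mean plus 0.5, red above and blue below the untreated mean, on a scale that stops at 3, which CCNE2 passed. Most rows are red in all 12 libraries with cisplatin, MCM6, RFC3, POLA1, PRIM1 and RRM1 are pale with cisplatin alone, and cisplatin replicate 1 is paler than replicates 2 and 3 in many rows.

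The heat map shows how unlike the 3 cisplatin libraries were in this set. Summed over the 37 genes the level was 1740 to 1789 CPM in untreated cells, and 2880, 4543 and 4635 CPM in cisplatin replicates 1, 2 and 3. It was 3694 to 4164 CPM with Tranilast and cisplatin, 3633 to 4532 with Telmisartan and cisplatin and 3334 to 3678 with Amphotericin B and cisplatin. All 12 treated sums lay above the 3 untreated ones. Cisplatin replicate 1 was the lowest of its group for 27 of the 37 genes (73%), against 41.7% of all genes tested, and Telmisartan replicate 3 was the highest of its group for 21 of 37 (56.8%, against 46.1%). As a share of all counts, with no TMM scaling, the 37 genes held 0.202% to 0.207% in untreated cells, 0.207% in cisplatin replicate 1, 0.427% and 0.497% in cisplatin replicates 2 and 3, 0.465% to 0.517% with Tranilast, 0.297% to 0.552% with Telmisartan and 0.267% to 0.276% with Amphotericin B. Without cisplatin replicate 1 the comparison of cisplatin with untreated cells gave 29 genes higher and 0 lower, with a median of 1.45, where 20.7% of all genes were higher and 24.5% lower.

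All 3 licensing genes rose with cisplatin. CDT1, which brings the MCM helicase to origins, was at 55.8, 49.2 and 43.5 CPM in untreated cells, 151, 214 and 241 with cisplatin, 193, 174 and 151 with Tranilast and cisplatin, 189, 184 and 235 with Telmisartan and cisplatin, and 186, 208 and 208 with Amphotericin B and cisplatin. Every treated library was above every untreated one, and the treated groups overlapped each other. The rise with cisplatin was 4.09-fold (log2 fold change 2.03 ± 0.20 (SE), adjusted p = 4.06e-06). GMNN, whose product geminin inhibits CDT1, was at 34.8, 25.9 and 28 CPM in untreated cells, 53.2, 133 and 118 with cisplatin, 67, 56.4 and 58.5 with Tranilast and cisplatin, 76.5, 64.1 and 85.6 with Telmisartan and cisplatin, and 56.9, 48.9 and 57.4 with Amphotericin B and cisplatin. Cisplatin replicates 2 and 3 were the highest of all 15 libraries and replicate 1 was below every Tranilast and Telmisartan library. GMNN rose 3.44-fold (log2 fold change 1.78 ± 0.26 (SE), adjusted p = 5.14e-05). CDC6, an ATPase of the licensing complex, ranged from 40.3 to 49.9 CPM in untreated cells and from 37 to 132 with cisplatin, where replicate 1 fell below the untreated libraries, and its rise passed the test (log2 fold change 1.18, adjusted p = 0.00896) but not without cisplatin replicate 2. With Amphotericin B and cisplatin, CDC6 did not pass against untreated cells (0.62, adjusted p = 0.156).

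Of the 6 subunits of the MCM helicase ring, 5 rose with cisplatin. MCM2 was at 51.6, 40.3 and 49.4 CPM in untreated cells, 127, 180.5 and 170.4 with cisplatin, 121, 113 and 134 with Tranilast and cisplatin, 155, 125 and 149 with Telmisartan and cisplatin, and 109.5, 107 and 126 with Amphotericin B and cisplatin. The treated libraries all exceeded the untreated ones, and cisplatin replicates 2 and 3 were the highest. MCM2 rose 3.38-fold with cisplatin (log2 fold change 1.76 ± 0.18 (SE), adjusted p = 5.72e-06). MCM5 was at 59, 64.2 and 54.7 CPM in untreated cells, 112, 142 and 161 with cisplatin, 165, 178 and 152 with Tranilast and cisplatin, 158, 136 and 153 with Telmisartan and cisplatin, and 216, 181 and 143 with Amphotericin B and cisplatin. Here too no treated library overlapped the untreated group, and the highest single library was Amphotericin B replicate 1. MCM5 rose 2.34-fold (log2 fold change 1.22 ± 0.19 (SE), adjusted p = 7.76e-05), and MCM3, MCM4 and MCM7 rose by log2 fold changes of 0.80, 1.21 and 0.64. MCM6 moved least of the ring, from 40 to 48.9 CPM in untreated cells to 46.6 to 54.8 with cisplatin (log2 fold change 0.20 ± 0.20 (SE), adjusted p = 0.431, 95% interval -0.19 to 0.59), and its window held the 4 E2F matches shown. It also did not pass in any drug combination against untreated cells, where its log2 fold changes were 0.40, 0.42 and 0.51 for Tranilast, Telmisartan and Amphotericin B.

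The 6 genes whose products turn the MCM ring into a working helicase, CDC45, GINS1, GINS2, GINS3, GINS4 and MCM10, all rose with cisplatin. MCM10 was at 24.9, 29.6 and 25.5 CPM in untreated cells, 44.2, 138 and 142 with cisplatin, 108, 94.9 and 91.4 with Tranilast and cisplatin, 81.7, 76.8 and 124 with Telmisartan and cisplatin, and 55.5, 73.8 and 77.5 with Amphotericin B and cisplatin. Cisplatin replicates 2 and 3 and Telmisartan replicate 3 were the highest, and cisplatin replicate 1 was the lowest of the treated libraries. MCM10 rose 4.07-fold with cisplatin (log2 fold change 2.02 ± 0.32 (SE), adjusted p = 0.000106). GINS2 was at 14, 15.8 and 15.8 CPM in untreated cells, 31.9, 49 and 43.3 with cisplatin, 38.7, 40.1 and 38.4 with Tranilast and cisplatin, 52.6, 42.5 and 45.1 with Telmisartan and cisplatin, and 34.1, 42.5 and 51.4 with Amphotericin B and cisplatin. All treated libraries were higher than the untreated ones, with overlap among the treated groups. GINS2 rose 2.72-fold (log2 fold change 1.44 ± 0.21 (SE), adjusted p = 5.26e-05), a value that is uncertain because the 3′ end of GSE1, on the opposite strand, lies over that of GINS2 and the sources used here do not say whether counting used strand. GINS1, GINS3 and GINS4 rose by 1.06, 1.69 and 1.44 on the log2 scale. CDC45 was the exception in pattern: cisplatin replicate 1 was its highest cisplatin library, and its level was 13.1, 12.4 and 8.91 CPM in untreated cells and 31.9, 16.2 and 13.5 with cisplatin. Its call (log2 fold change 0.82 ± 0.30 (SE), adjusted p = 0.0345) was lost under 8 of 22 alternative settings, among them leaving out any of the untreated replicates or cisplatin replicate 1.

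In the group of the clamp, its loader and the polymerases, 7 of 10 genes rose with cisplatin. PCNA, the sliding clamp, was at 29.3, 24.5 and 22.9 CPM in untreated cells, 51.5, 110.4 and 123 with cisplatin, 88.9, 64.9 and 73.8 with Tranilast and cisplatin, 122, 48.1 and 115 with Telmisartan and cisplatin, and 81.8, 74.6 and 116 with Amphotericin B and cisplatin. Its treated libraries were all above the untreated ones, but they spread widely, with Telmisartan replicate 2 lowest and replicate 1 among the highest. PCNA rose 3.74-fold with cisplatin (log2 fold change 1.90 ± 0.33 (SE), adjusted p = 0.000238). RFC5, a subunit of the clamp loader, was at 20.4, 17.3 and 19.9 CPM in untreated cells, 36.4, 54 and 52 with cisplatin, 45.8, 37.1 and 42 with Tranilast and cisplatin, 46.4, 56.9 and 60.5 with Telmisartan and cisplatin, and 33.4, 53.7 and 38.8 with Amphotericin B and cisplatin. No treated library overlapped the untreated ones. RFC5 rose 2.48-fold (log2 fold change 1.31 ± 0.22 (SE), adjusted p = 0.000164), and the reads of WSB2, whose 3′ end overlaps on the other strand, could add to it. RFC2, RFC4 and DSCC1, also loader subunits, rose by 1.23, 0.80 and 0.80 on the log2 scale, and the calls of RFC4 and DSCC1 were lost without cisplatin replicate 3, that of DSCC1 also without untreated replicate 1 or 2. RFC4 shares its 3′ end with EIF4A2 on the opposite strand.

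Of the polymerase genes, POLD1, the catalytic subunit of polymerase delta, was counted at 4.46, 5.75 and 2.8 CPM in untreated cells, 10.6, 10.3 and 7.94 with cisplatin, 11.5, 10.1 and 9.93 with Tranilast and cisplatin, 23, 16.6 and 11 with Telmisartan and cisplatin, and 36.3, 28.9 and 17.9 with Amphotericin B and cisplatin. The treated libraries lay above the untreated ones, and Amphotericin B replicates 1 and 2 were the highest. POLD1 rose 2.21-fold with cisplatin (log2 fold change 1.14 ± 0.37 (SE), adjusted p = 0.0199), a call that was lost without untreated replicate 3 or cisplatin replicate 2. POLE, the catalytic subunit of polymerase epsilon, rose by 0.60 on the log2 scale (adjusted p = 0.0342), and was lost under 9 of 22 settings, leaving out any untreated or cisplatin library among them. RFC3 did not pass, and was at 80.3, 90.3 and 89.3 CPM in untreated cells, 79, 98.6 and 110.0 with cisplatin, 168, 158 and 144 with Tranilast and cisplatin, 97, 89.5 and 126 with Telmisartan and cisplatin, and 87.5, 76.2 and 67.8 with Amphotericin B and cisplatin. Its cisplatin libraries overlapped the untreated ones, and only the Tranilast libraries stood clear of every other library. POLA1, the catalytic subunit of polymerase alpha, was at 63.8, 65.9 and 70.5 CPM in untreated cells and 116, 65.2 and 40.9 with cisplatin, a spread that ran on both sides of the untreated range. PRIM1, the catalytic subunit of primase, was at 5.6 to 9.78 CPM in untreated cells and 7.36 to 14.3 with cisplatin, and its 3′ end overlaps NACA, an abundant transcript of the same strand.

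For nucleotide supply, RRM2 and TYMS rose with cisplatin and RRM1 did not pass. RRM2, the S-phase subunit of ribonucleotide reductase, was at 82.2, 77.1 and 62.4 CPM in untreated cells, 175, 243 and 248 with cisplatin, 264, 213 and 220.5 with Tranilast and cisplatin, 274, 259 and 272 with Telmisartan and cisplatin, and 248, 217 and 242 with Amphotericin B and cisplatin. Its lowest treated library, cisplatin replicate 1, was still above the highest untreated one, and the Telmisartan libraries were above all cisplatin ones. RRM2 rose 3.01-fold (log2 fold change 1.59 ± 0.18 (SE), adjusted p = 8.01e-06). TYMS, thymidylate synthase, was at 107, 118 and 112 CPM in untreated cells, 200.5, 139 and 162 with cisplatin, 172, 164 and 155 with Tranilast and cisplatin, 239.8, 228 and 162 with Telmisartan and cisplatin, and 248, 221 and 229.6 with Amphotericin B and cisplatin. All treated libraries were above the untreated ones, and cisplatin replicate 1 was here the highest of its group. TYMS rose 1.49-fold (log2 fold change 0.57 ± 0.18 (SE), adjusted p = 0.0155), a call lost under 6 of 22 settings, leaving out untreated replicate 1 or 3 or cisplatin replicate 1 among them, and its 3′ end overlaps that of ENOSF1 on the opposite strand. RRM1, the large subunit of the reductase, was at 148, 137 and 133 CPM in untreated cells and 182, 165 and 188 with cisplatin, without overlap, and missed the threshold (log2 fold change 0.36 ± 0.15 (SE), adjusted p = 0.0538). It passed against untreated cells with Tranilast (0.48), Telmisartan (0.64) and Amphotericin B (0.45), the last of which turned to -0.11 when scaled by library size only.

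The 5 genes that control entry into S phase, E2F1, E2F2, CCNE1, CCNE2 and CDC25A, all rose with cisplatin, each at least 4.15-fold. E2F1, an activating E2F factor, was at 18.5, 22.4 and 18.6 CPM in untreated cells, 61.6, 129 and 109 with cisplatin, 93, 65.7 and 63.2 with Tranilast and cisplatin, 63.8, 61.3 and 96.6 with Telmisartan and cisplatin, and 64.7, 61 and 55.2 with Amphotericin B and cisplatin. Every treated library exceeded the untreated ones, and cisplatin replicates 2 and 3 were the highest. E2F1 rose 5.03-fold with cisplatin (log2 fold change 2.33 ± 0.27 (SE), adjusted p = 8.02e-06). E2F2 was at 44.6, 37.4 and 43 CPM in untreated cells, 78.4, 299 and 244 with cisplatin, 189.8, 152 and 131 with Tranilast and cisplatin, 128, 97.2 and 225 with Telmisartan and cisplatin, and 69.7, 55.3 and 50.7 with Amphotericin B and cisplatin. Cisplatin replicates 2 and 3 and Telmisartan replicate 3 were the highest, cisplatin replicate 1 was well below them, and the Amphotericin B libraries were the lowest of the treated ones. E2F2 rose 4.98-fold (log2 fold change 2.31 ± 0.37 (SE), adjusted p = 0.000116). CCNE1, one of the E-type cyclins that activate CDK2, was at 18.8, 17.3 and 16.8 CPM in untreated cells, 50.4, 115 and 77.5 with cisplatin, 40.6, 38.2 and 33 with Tranilast and cisplatin, 70.4, 34.8 and 52.6 with Telmisartan and cisplatin, and 39.1, 39.3 and 28.3 with Amphotericin B and cisplatin. All treated libraries were above the untreated ones, and the Tranilast and Amphotericin B libraries were below every cisplatin library. CCNE1 rose 4.6-fold (log2 fold change 2.20 ± 0.28 (SE), adjusted p = 1.95e-05).

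CCNE2, the other E-type cyclin, had the largest rise of the 37 genes, from a low base. It was at 1.27, 3.45 and 4.07 CPM in untreated cells, 10.6, 55.9 and 42.9 with cisplatin, 26.1, 13.6 and 17.6 with Tranilast and cisplatin, 33.7, 20.4 and 37.2 with Telmisartan and cisplatin, and 10.7, 10.4 and 8.2 with Amphotericin B and cisplatin. Cisplatin replicate 1 was close to the Amphotericin B libraries and replicates 2 and 3 were the highest of all. CCNE2 rose 12.1-fold with cisplatin (log2 fold change 3.60 ± 0.50 (SE), adjusted p = 3.73e-05), and INTS8 overlaps its 3′ end on the opposite strand. CDC25A, the phosphatase that activates CDK2, ranged from 23.3 to 27.6 CPM in untreated cells and was at 30.2, 153 and 139 CPM with cisplatin. Its replicate 1 was barely above the untreated libraries. CDC25A rose 4.15-fold (log2 fold change 2.05 ± 0.39 (SE), adjusted p = 0.000463).

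The 4 genes of histone supply to new DNA rose with cisplatin. ASF1B, a chaperone that hands histones H3 and H4 to CAF-1, was at 37, 42.9 and 34.1 CPM in untreated cells, 119, 262 and 230.0 with cisplatin, 155, 108 and 119 with Tranilast and cisplatin, 127, 104 and 166 with Telmisartan and cisplatin, and 69, 64.2 and 58.9 with Amphotericin B and cisplatin. As for E2F2, cisplatin replicates 2 and 3 were the highest and the Amphotericin B libraries the lowest of the treated ones. ASF1B rose 5.37-fold (log2 fold change 2.42 ± 0.26 (SE), adjusted p = 6.37e-06). CHAF1B, a subunit of CAF-1, was at 6.7, 4.89 and 6.62 CPM in untreated cells, 11.8, 20.1 and 21.8 with cisplatin, 24.2, 18 and 19.9 with Tranilast and cisplatin, 16.8, 20.4 and 22.3 with Telmisartan and cisplatin, and 17.8, 8.82 and 13.4 with Amphotericin B and cisplatin. All treated libraries were above the untreated ones, by the least in Amphotericin B replicate 2. CHAF1B rose 2.97-fold (log2 fold change 1.57 ± 0.30 (SE), adjusted p = 0.000534). CHAF1A, the large subunit of CAF-1, rose by 0.87 on the log2 scale, a call lost without cisplatin replicate 3, and overlaps UBXN6 at its 3′ end. SLBP, which binds the stem-loop of histone mRNAs, rose by 1.31. With Amphotericin B and cisplatin, SLBP ranged from 17.9 to 34.1 CPM against 17.5 to 20.1 in untreated cells and did not pass (log2 fold change 0.49, adjusted p = 0.219).

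**Figure D2:**
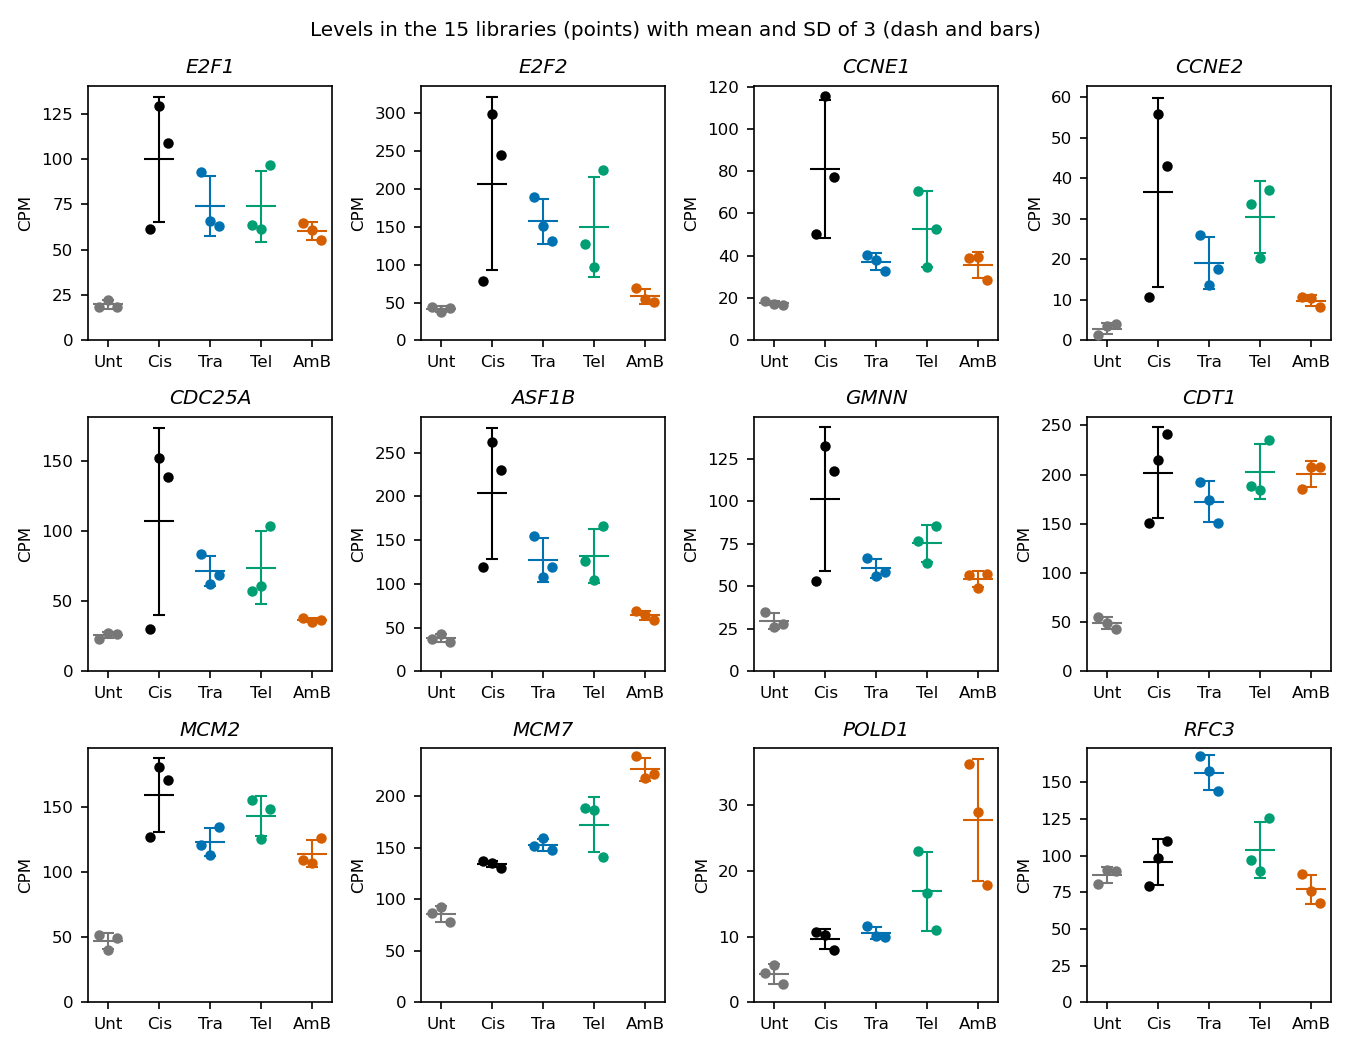
Levels in CPM of 12 of the genes in untreated cells (Unt), with cisplatin (Cis), and with Tranilast (Tra), Telmisartan (Tel) or Amphotericin B (AmB) before cisplatin. Points are libraries, dashes means and bars SD of 3, with each axis from 0. For E2F1, E2F2, CCNE1, CCNE2, CDC25A, ASF1B, GMNN, MCM2 and RFC3 the Amphotericin B group has the lowest mean of the treated groups. MCM7 and POLD1 are highest with Amphotericin B, and RFC3 is highest with Tranilast.

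The E2F motif was found both in genes that rose with cisplatin and in genes that did not pass. Among the 32 genes that rose with cisplatin, 27 had a window and 15 of these held the motif. All 5 genes that did not pass had a window, and 3 of them, MCM6, RFC3 and POLA1, held it. CCNE1, ASF1B, RRM2, MCM10 and CDC45 rose with no match to these words in their windows, as did POLD1, RFC2, RFC4, RFC5, SLBP, CHAF1A and CHAF1B. No window was available for CCNE2, MCM4, MCM5, GINS4 and DSCC1.

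The study asked what each drug changes in cells given cisplatin, so each combination was compared with cisplatin alone. These 3 comparisons share the same 3 cisplatin libraries. Amphotericin B lowered 6 genes and raised 2, where 9.01% of all genes were lower and 4.21% were higher, and the median log2 fold change of the 37 genes was -0.07 against -0.04 over all genes. The genes that fell were E2F2, CCNE1, CCNE2 and CDC25A, 4 of the 5 genes of S-phase entry, with ASF1B and GMNN. Those that rose were MCM7 and POLD1. Among the helicase activators the smallest adjusted p was 0.0775, for GINS3 (-0.89 on the log2 scale).

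ASF1B fell 3.19-fold with Amphotericin B (log2 fold change -1.67 ± 0.26 (SE), adjusted p = 0.00356) and its libraries did not overlap those of cisplatin alone. E2F2 fell 3.54-fold (log2 fold change -1.82 ± 0.38 (SE), adjusted p = 0.00723), again without overlap, to 69.7, 55.3 and 50.7 CPM, and did not pass against untreated cells (log2 fold change 0.49, 95% interval -0.25 to 1.23, adjusted p = 0.312). CCNE1 fell 2.28-fold (log2 fold change -1.19 ± 0.28 (SE), adjusted p = 0.0137) and its libraries did not overlap. CCNE2 fell 3.76-fold (log2 fold change -1.91 ± 0.49 (SE), adjusted p = 0.0187), but cisplatin replicate 1 lay among the Amphotericin B libraries. CDC25A fell 2.93-fold (log2 fold change -1.55 ± 0.40 (SE), adjusted p = 0.019), to 35.3 to 38.4 CPM, with cisplatin replicate 1 below that range. GMNN fell 1.87-fold (log2 fold change -0.90 ± 0.26 (SE), adjusted p = 0.0326) with cisplatin replicate 1 inside the Amphotericin B range. Against untreated cells CDC25A did not pass (log2 fold change 0.50, adjusted p = 0.34), while CCNE1, CCNE2, ASF1B and GMNN were still higher, by 1.01, 1.69, 0.75 and 0.88. E2F1 pointed the same way as E2F2 but missed the threshold (log2 fold change -0.73 ± 0.26 (SE), adjusted p = 0.0638).

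MCM7 and POLD1 went up further with Amphotericin B than with cisplatin alone. MCM7 was at 86.7, 92.9 and 78.2 CPM in untreated cells, 137, 135 and 131 with cisplatin, 152, 159.5 and 148 with Tranilast and cisplatin, 188, 187 and 142 with Telmisartan and cisplatin, and 239, 218 and 221 with Amphotericin B and cisplatin. The 3 Amphotericin B libraries were the highest of the 15 and did not overlap any other. MCM7 rose 1.68-fold over cisplatin alone (log2 fold change 0.75 ± 0.16 (SE), adjusted p = 0.00808). POLD1, whose values stand with the polymerases, rose 2.89-fold (log2 fold change 1.53 ± 0.34 (SE), adjusted p = 0.00996), with no overlap and the widest spread in the Amphotericin B group. CDC6, GINS3, RFC4, SLBP, E2F2 and CDC25A passed against untreated cells with cisplatin alone and not with Amphotericin B and cisplatin. A call in one comparison and not in the other does not show a difference, and of these 6 genes the direct test passed for E2F2 and CDC25A.

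The number of Amphotericin B calls moved with the cisplatin libraries, with the Amphotericin B libraries and with the fit. Without cisplatin replicate 1, 13 genes were lower and 5 higher, where 17.2% and 16.6% of all genes were called, and E2F1, MCM2, MCM10, CDC6, GINS3, RFC4 and SLBP joined the 6 that fell. Without cisplatin replicate 2, E2F2, CCNE1, CCNE2, CDC25A and GMNN lost their calls, and without replicate 3, CCNE2, CDC25A and GMNN did. Leaving out Amphotericin B replicate 1 lost the calls of CCNE2, CDC25A, GMNN and POLD1. Leaving out its replicate 3 lost those of CCNE1, CCNE2, CDC25A and GMNN. With the mitochondrial share as a covariate, 1 gene was lower and 2 higher (3.42% and 1.42% of all genes). There E2F2, CCNE1, CCNE2, CDC25A, GMNN and POLD1 lost their calls, so the 2 higher genes were not the pair MCM7 and POLD1. A fit of the 6 libraries alone gave 2 lower and 0 higher, where the calls over all genes also fell, to 0.717% lower and 0.25% higher. Of the 8 calls, that of ASF1B held under all 22 alternative settings. Scaled by library size only, 6 genes were lower and 1 higher (7.65% and 2.18% of all genes).

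Tranilast lowered CCNE1 and GMNN and raised RFC3 relative to cisplatin alone, where 11.6% of all genes were lower and 10.5% higher, with a median log2 fold change of -0.08 for the 37 genes and 0.02 for all. CCNE1 fell 2.19-fold (log2 fold change -1.13 ± 0.27 (SE), adjusted p = 0.00781), its libraries all below those of cisplatin. GMNN fell 1.68-fold (log2 fold change -0.75 ± 0.25 (SE), adjusted p = 0.0392), with cisplatin replicate 1 below the Tranilast libraries. RFC3 rose 1.63-fold (log2 fold change 0.70 ± 0.18 (SE), adjusted p = 0.0111) without overlap, and among the 37 genes it was the one that passed against untreated cells with Tranilast (0.85, adjusted p = 0.00623) but not with cisplatin, Telmisartan or Amphotericin B. ASF1B and CCNE2 had lower values with Tranilast that missed the threshold (log2 fold changes -0.68 and -0.96, adjusted p = 0.0528 and 0.0991).

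The Tranilast calls also moved with the cisplatin libraries and the scaling. Without cisplatin replicate 1, 9 genes were lower (E2F1, E2F2, CCNE1, CCNE2, CDC25A, ASF1B, GMNN, MCM2 and SLBP) and 1 higher, against 10.8% and 12.6% of all genes. Without cisplatin replicate 2, CCNE1 and GMNN both lost their calls, and without replicate 3 that of GMNN was lost. Scaled by library size only, 0 genes were lower and 8 higher while 23.2% of all genes were higher and their median rose to 0.46. With the mitochondrial share as a covariate, 15 genes were lower and 1 higher, where 13.7% and 12.4% of all genes were called. The RFC3 call held under all 22 settings, that of CCNE1 under all but library size and the omission of cisplatin replicate 2, and that of GMNN was lost under 12.

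Telmisartan gave 0 lower and 0 higher genes of the 37 relative to cisplatin alone in edgeR, where 0% of all genes were lower and 0% higher. At an unadjusted p under 0.05, 2 genes were lower and 3 higher, where 592 and 558 of all 11113 genes were. DESeq2 called 0 and 0, where 0.234% and 0.036% of all genes were called. Among the 37, log2 fold changes ran from -0.62 for CCNE1 to 0.78 for POLD1, with a median of 0.06 against 0.00 over all genes. The 95% intervals, which carry no adjustment for the number of genes, leave room for sizeable changes, for example -1.15 to -0.10 for CCNE1, -1.15 to 0.22 for E2F2, -1.10 to -0.14 for ASF1B and 0.12 to 1.45 for POLD1. Both groups of this comparison hold a library that stood apart. Without cisplatin replicate 1, 3 genes were lower (ASF1B, GMNN and CDC25A), where 2.15% of all genes were.

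**Figure D3:**
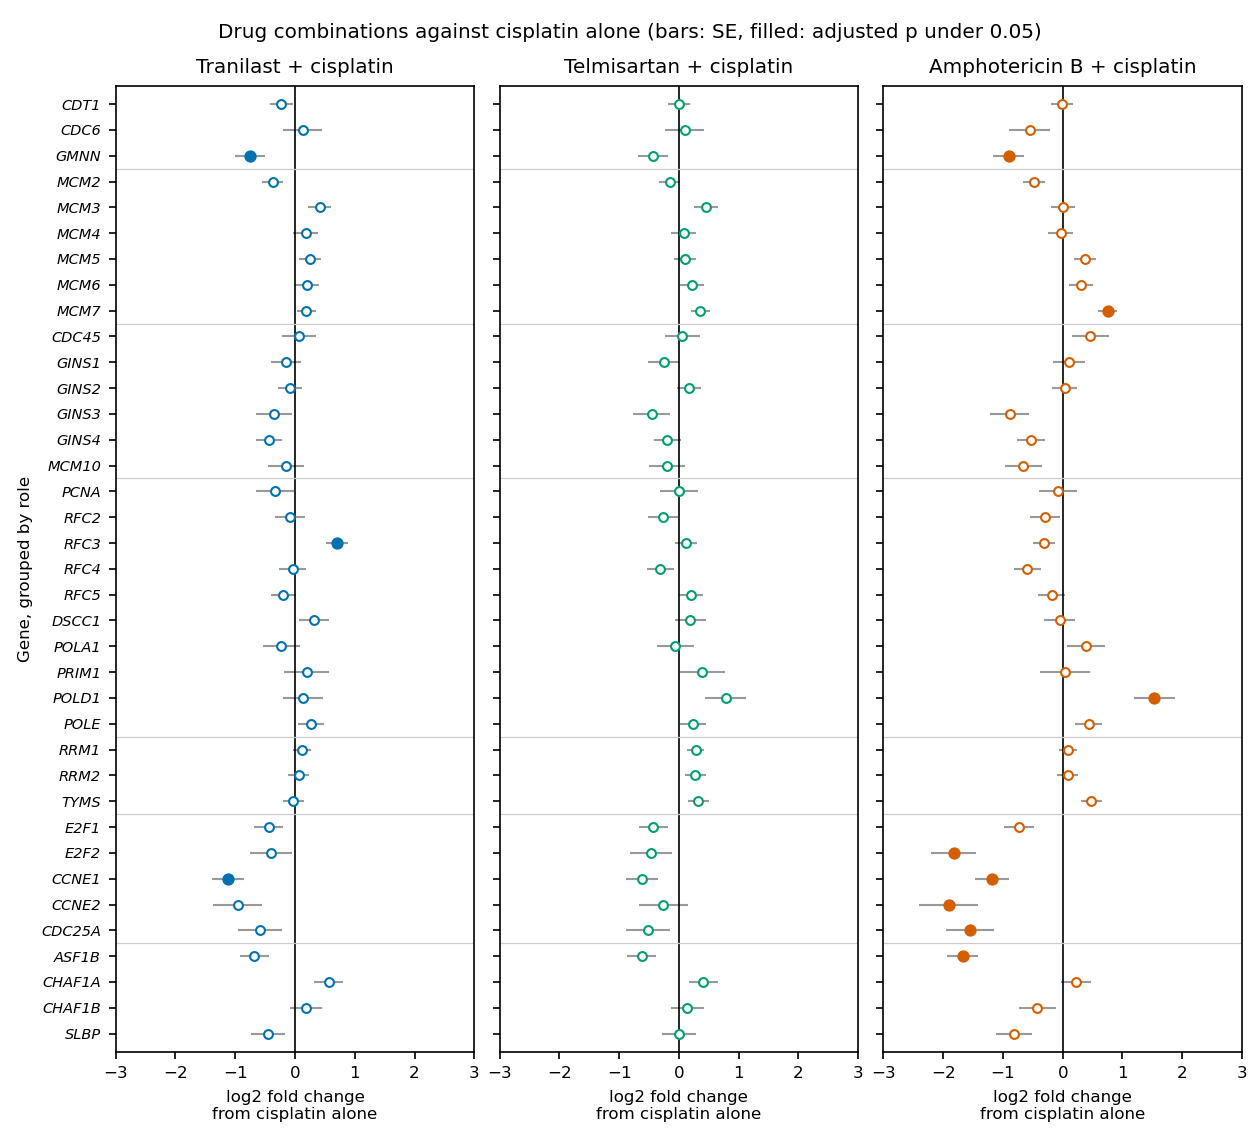
Log2 fold change of each of the 37 genes from cisplatin alone with Tranilast, Telmisartan or Amphotericin B given before cisplatin. Points are estimates from the edgeR fit, bars SE, and filled points an adjusted p under 0.05. The filled points are CCNE1, GMNN and RFC3 for Tranilast, none for Telmisartan, and E2F2, CCNE1, CCNE2, CDC25A, ASF1B, GMNN, MCM7 and POLD1 for Amphotericin B. All panels use the same 3 cisplatin libraries.

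Compared directly with each other, Tranilast and Amphotericin B, both with cisplatin, differed in 6 of the 37 genes. With Tranilast, 3 were lower and 3 were higher, where 16.4% and 19.7% of all genes were called. RFC3 (log2 fold change 1.02 ± 0.18 (SE), adjusted p = 0.00116), E2F2 (log2 fold change 1.42 ± 0.37 (SE), adjusted p = 0.00764) and ASF1B (log2 fold change 0.99 ± 0.26 (SE), adjusted p = 0.00743) were higher with Tranilast. POLD1 (log2 fold change -1.40 ± 0.32 (SE), adjusted p = 0.00376), MCM7 (log2 fold change -0.56 ± 0.16 (SE), adjusted p = 0.0114) and TYMS (log2 fold change -0.51 ± 0.18 (SE), adjusted p = 0.0348) were lower. The libraries of the 2 groups did not overlap for any of the 6. CCNE1 was almost the same in both (0.06, 95% interval -0.50 to 0.62). Scaled by library size only, 0 genes were lower and 21 higher with Tranilast while 47.8% of all genes were higher and their median rose from 0.15 to 0.81, and MCM7 and TYMS turned to 0.10 and 0.15.

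Tranilast and Telmisartan, both with cisplatin, differed in 0 of the 37 genes in edgeR, lower or higher, where 1.75% and 0.585% of all genes were called. At an unadjusted p under 0.05, 0 were lower and 1, RFC3, was higher (0.58, adjusted p = 0.0736). Of all 11113 genes, 1403 were lower and 1109 higher at that unadjusted p. DESeq2 called 1 higher, where 2.27% of all genes were. With the mitochondrial share as a covariate 8 were lower with Tranilast (0.918% of all genes) and the median moved from -0.06 to -0.39. Without Telmisartan replicate 3, 2 were lower and 1 higher (12.8% and 11.5% of all genes). Telmisartan and Amphotericin B also differed in 0 genes in either direction, where 0% and 0% of all genes were called. At an unadjusted p under 0.05, 2 were lower and 7 higher with Telmisartan, where 832 and 1451 of all 11113 genes were. DESeq2 called 0 lower and 2 higher, where 0.54% and 1.12% of all genes were called. E2F2 and CCNE2 were 1.36 and 1.65 on the log2 scale above Amphotericin B (adjusted p = 0.11 and 0.117). Without cisplatin replicate 1, which enters the shared estimate of the spread, 5 genes were higher with Telmisartan than with Amphotericin B, where 4.17% of all genes were.

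Other genes of replication and the cell cycle moved in both directions with cisplatin. Of 99 tested genes from 7 lists of neighbouring functions, 37 were higher and 19 lower (21.1% and 23.6% of all genes), with a median log2 fold change of 0.24. In the list of origin and fork factors, 6 of 20 were higher and 4 lower, where the smallest adjusted p were those of RECQL4, a helicase needed to start replication (2.13, adjusted p = 7.46e-06), and ORC6, a subunit of the origin recognition complex (1.72, adjusted p = 9.09e-06). Of 18 other polymerase and lagging-strand genes, 10 were higher and 1 lower. FEN1, the flap endonuclease that trims Okazaki fragments (3.09, adjusted p = 4.06e-06), and POLE3, a small subunit of polymerase epsilon (1.58, adjusted p = 8.02e-06) had the smallest adjusted p. Among 10 other nucleotide genes 6 were higher and 2 lower, and TK1, thymidine kinase (1.86, adjusted p = 5.85e-06), had the smallest. Of 25 genes of G1 control, 11 were higher and 4 lower, and FBXO5, an inhibitor of the anaphase-promoting complex (2.09, adjusted p = 8.02e-06), and CCND3, a D-type cyclin (1.39, adjusted p = 1.39e-05) came first. Of 5 genes for the chromatin of new DNA, 1 passed and was lower, DNMT1, the maintenance DNA methyltransferase (-0.60, adjusted p = 0.00954), followed by HAT1, a histone acetyltransferase that did not pass (-0.37, adjusted p = 0.181).

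**Figure D4:**
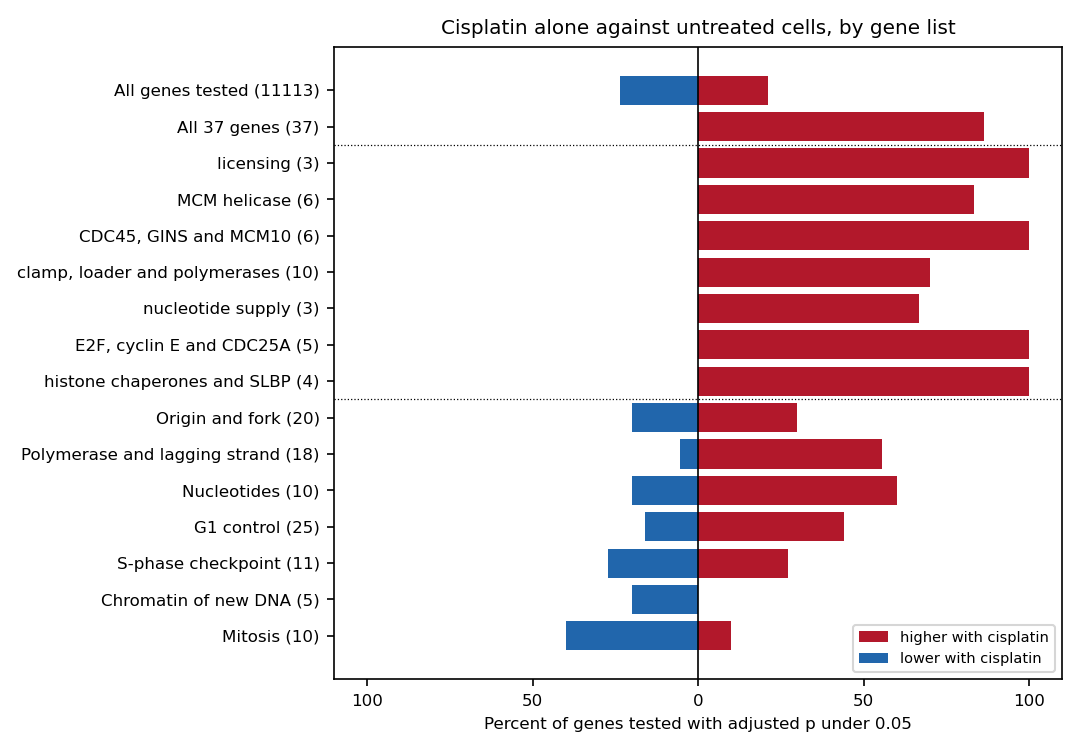
Percent of genes called higher (red, to the right) or lower (blue, to the left) with cisplatin alone against untreated cells, for all genes tested, the 37 genes, their 7 role groups and the 7 lists of neighbouring functions, with the number of genes tested in brackets. The 37 genes show 32 higher and 0 lower, the lists below the lower dotted line show both directions, apart from the list for the chromatin of new DNA with 1 lower, and the Mitosis list has 4 lower and 1 higher.

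Of the 99 neighbouring genes, Amphotericin B lowered 9 and raised 4 relative to cisplatin alone, close to the 9.01% and 4.21% of all genes, so the counts are no result about these lists and the genes are given as single values. FEN1 (-1.72, adjusted p = 0.00404) and CHTF8, a partner of DSCC1 in the clamp loader (-1.43, adjusted p = 0.00587), fell. So did CCND1, a D-type cyclin (-1.24, adjusted p = 0.00356), FBXO5 (-1.12, adjusted p = 0.00848) and DONSON, a fork protein (-0.70, adjusted p = 0.0355). HELLS, a chromatin remodeller, rose (0.70, adjusted p = 0.0384). CLSPN was at -0.86, SAMHD1 at 0.91, RRM2B at -0.60 and DNMT1 at 0.37 on the log2 scale, none past the threshold.

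Tranilast lowered 11 and raised 10 of the 99, also close to the shares of all genes (11.6% and 10.5%). FBXO5 fell (-1.40, adjusted p = 0.00163), as did FEN1 (-1.15, adjusted p = 0.00819), POLE3 (-0.79, adjusted p = 0.00596) and RECQL4 (-0.82, adjusted p = 0.0166). RBL1, a relative of the retinoblastoma protein (1.90, adjusted p = 0.00192), ORC2, an origin recognition subunit (1.09, adjusted p = 0.00261), CTPS1, CTP synthase (0.87, adjusted p = 0.00553), and DNMT1 (0.73, adjusted p = 0.0074) rose, and HAT1 was at 0.61 without passing. Telmisartan called 0 of the 99 in edgeR, where 0 of all 11113 genes were called. At an unadjusted p under 0.05, 5 were lower and 10 higher, against 592 and 558 of all genes. DESeq2 called 1 lower and 0 higher, where 0.234% and 0.036% of all genes were called. FEN1 was at -0.69, CCND1 at -0.72, ORC2 at 0.73, WDHD1 at 0.58, RBL1 at 0.99, GART at 0.41, RPA1 at 0.39, HELLS at 0.68 and DNMT1 at 0.47 on the log2 scale.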

How the data were processed

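RNA of 15 IGROV-CP20 libraries, made from 100 ng each and read as single 75 bp reads, was analysed. The authors deposited 1 table of raw counts per Ensembl gene for each library, without normalization. STAR 2.3.0, HTSeq and hg19 are named in the submitters' processing notes, without a role. The gene annotation and the use of strand in counting are not given in the sources used here, so no coordinates are given for the counted genes. Of 47634 identifiers, 45455 matched a symbol. Groups and replicate numbers come from the sample labels. Doses come from the study's methods.

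Counts were tested with edgeR 4.0.16 in R 4.3.3: filterByExpr by condition, TMM factors, and a quasi-likelihood fit with 1 term per condition over all 15 libraries, followed by Benjamini-Hochberg adjustment over all 11113 genes within each comparison, at a threshold of 0.05. Standard errors (SE) were taken as log2 fold change divided by the root of F. Intervals of log2 fold changes are 95% by a normal approximation from the SE, and are somewhat narrower than the quasi-likelihood test implies. CPM values are TMM-scaled. Totals of 1510620 to 3517041 set the floor of 3 counts at 8.53e-05% to 0.000199% of a library, for counting error only. In counts simulated for Tranilast against cisplatin (10176 genes), the test found 50 of 100 genes changed 2-fold and 94 of 100 changed 4-fold, and called 6 unchanged genes. Those counts were drawn independently from a common mean profile, so no simulated library stood apart as cisplatin replicate 1 did. The changed genes were not taken from the lowly counted ones, so the rates may not hold for the real libraries.

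Alternatives were DESeq2 1.42.0, RLE factors, library size only, no filter beyond 1 count, only the 6 libraries compared, the replicate number as a block, the mitochondrial ribosomal RNA share as a covariate, and each library left out in turn, 22 settings in all. Promoter windows are RefSeq's, with 250 bases before and 50 after the start. Tables were summarised in Python 3.11.15 (scipy 1.17.1, numpy 2.4.6, pandas 2.3.3) and drawn with matplotlib 3.10.9. The members, lists and naming rule were chosen with earlier results of these data known. The rule gave values in all 15 libraries for the 2 genes per role group with the smallest adjusted p in cisplatin against untreated cells and for up to 6 genes per drug comparison with cisplatin past the threshold, and named 2 genes per neighbouring list and comparison, of which 1 gene is not reported here. CDC25A, CDC45, POLA1, RRM1 and genes given by ranges fall outside it.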

Additional observations from a re-analysis of the deposited data

Results flagged for a closer look

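The libraries of Tranilast and Amphotericin B, both with cisplatin, were compared directly, and 6 of the 37 genes passed the edgeR test of that difference, which is why they are listed here. Of the 6, 3 were lower and 3 higher with Tranilast, where 16.4% of all genes were lower and 19.7% higher, so the count does not set these genes apart. On the log2 scale, Tranilast minus Amphotericin B was 1.02 for RFC3, 1.42 for E2F2, 0.99 for ASF1B, -0.56 for MCM7, -1.40 for POLD1 and -0.51 for TYMS. The library groups differ in mitochondrial ribosomal RNA, at 2.1% to 2.53% of counts against 12.3% to 14.8%. With that share as a covariate none of the 6 calls held in edgeR, and E2F2 and TYMS turned to -0.27 and 0.031. The share and the drugs cannot be told apart in these libraries, whose ranges of it do not overlap.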

How the results depend on the processing

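Every direction of the called log2 fold changes held under 22 settings except 5 values, none past the threshold: scaled by library size only, RRM1 with Amphotericin B against untreated cells turned to -0.11, and Tranilast against Amphotericin B turned to 0.10 for MCM7 and 0.15 for TYMS. With the mitochondrial ribosomal RNA covariate the latter comparison turned to -0.27 for E2F2 and 0.031 for TYMS. Of the calls, 20 of 32 for cisplatin against untreated cells, 17 of 31, 22 of 32 and 9 of 27 for Tranilast, Telmisartan and Amphotericin B against untreated cells, 1 of 3 and 1 of 8 for Tranilast and Amphotericin B against cisplatin, and 0 of 6 for Tranilast against Amphotericin B held under every setting. The cause of the changes was not tested. Shares of all genes called the same way follow in brackets. Library size only gave 20 higher for cisplatin (9.17%) and 11 higher and 1 lower for Amphotericin B (7.98% and 43.2%) against untreated cells. It gave 0 lower and 8 higher for Tranilast (3.57% and 23.2%) and 1 higher for Amphotericin B (2.18%) against cisplatin, and 0 lower and 21 higher for Tranilast against Amphotericin B (6.87% and 47.8%). DESeq2 gave 4 lower for Tranilast against cisplatin (15.1%), 1 higher for Tranilast against Telmisartan (2.27%) and 2 higher for Telmisartan against Amphotericin B (1.12%). The 6 libraries alone gave 1 lower for Tranilast (9.32%) and 2 lower and 0 higher for Amphotericin B (0.717% and 0.25%) against cisplatin. They gave 5 lower and 7 higher for Tranilast against Amphotericin B (25.8% and 22.8%). The mitochondrial covariate gave 15 lower for Tranilast (13.7%), 1 higher for Telmisartan (1.21%) and 1 lower for Amphotericin B (3.42%) against cisplatin. It gave 8 lower for Tranilast against Telmisartan (0.918%), and 1 lower and 0 higher for Tranilast against Amphotericin B (0.099% and 0.675%). With no filter, Amphotericin B against cisplatin had 11 lower (5.32%), Tranilast against Amphotericin B 1 lower and 8 higher (7.73% and 10.6%), and Telmisartan against Amphotericin B 6 higher (2.71%). Replicate numbers did not pair the libraries throughout: 3 of 30 same-numbered pairs correlated over 0.1 (r from -0.238 to 0.641). Cisplatin and Telmisartan held the 2 highest, 0.319 for replicate 1 and 0.641 for replicate 3, with -0.179 for replicate 2. A replicate block changed the counts by over 1.5 times only for Tranilast against cisplatin, to 1 lower (11.6%). Leaving out each library in turn gave 0 to 9 lower and 1 to 3 higher for Tranilast against cisplatin, 0 to 3 lower for Telmisartan and 1 to 13 lower and 1 to 5 higher for Amphotericin B against cisplatin, 19 to 34 higher for Tranilast against untreated cells, 0 to 2 lower and 0 to 1 higher for Tranilast against Telmisartan, 3 to 8 higher for Tranilast and 0 to 5 higher for Telmisartan against Amphotericin B. The shares of all genes moved between these omissions as well, so the widths of these ranges are no result about the 37 genes. Without cisplatin replicate 1, 10.8% of all genes were lower for Tranilast and 2.15% for Telmisartan against cisplatin. Tranilast against untreated cells had 1.04% of all genes higher without untreated replicate 1 and 4.99% without cisplatin replicate 1. The latter omission gave 22.4% higher for Tranilast and 4.17% for Telmisartan against Amphotericin B. It gave 6.87% lower and 3.29% higher for Tranilast against Telmisartan. For Amphotericin B against cisplatin, 6.78% of all genes were lower without untreated replicate 2 and 17.2% without cisplatin replicate 1. Searched on 1 strand, the E2F motif was in 2.17% of all genes and 28.1% of the 32. Amphotericin B libraries had the lowest totals.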

Other observations

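Of 10 mitotic genes, 4 were lower and 1 higher with cisplatin alone than in untreated cells (edgeR, adjusted over all genes), where 23.6% of all genes were lower and 21.1% higher. The difference from the 37 genes was not tested. PLK1, a mitotic kinase, fell (log2 fold change -0.85 ± 0.20 SE, adjusted p = 0.00236), as did TOP2A (-0.85), BUB1 (-0.86) and CCNB1 (-0.48), the last 3 named after their values were seen. CDK1, the kinase of mitotic entry, rose (0.74 ± 0.17 SE, adjusted p = 0.00247). Relative to cisplatin alone, CDC20, an activator of the anaphase-promoting complex, was higher with Amphotericin B (1.04, adjusted p = 0.0197), where TOP2A was at -0.58 without passing. With Tranilast CDC20 (-0.53) and CDK1 (-0.31), and with Telmisartan CCNB2 (-0.24) and PLK1 (-0.21), had the smallest adjusted p of the list and did not pass.

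Of 11 genes of the S-phase checkpoint, 3 were higher and 3 lower with cisplatin alone, near the shares of all genes. RAD9A (1.89 ± 0.36 SE, adjusted p = 0.000489) and HUS1 (1.46 ± 0.30 SE, adjusted p = 0.00101), members of the 9-1-1 checkpoint clamp, rose. WEE1, the kinase that restrains CDK1, was lower with Amphotericin B than with cisplatin alone (-1.06, adjusted p = 0.032), where CDC25B was at -0.37 without passing. RAD17, the loader of that clamp, was higher with Tranilast (0.86, adjusted p = 0.0248), where CDC25C was at 0.63 without passing. With Telmisartan ATRIP was at 0.56 and WEE1 at -0.44, neither past the threshold.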
